A study of Homo sapiens with 2 samples.

Results

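Chromatin remodelers are ATP-driven machines that slide, evict or exchange nucleosomes, and 45 genes of their 4 families were examined for DEK occupancy in the 786-O line, a standard culture model of human renal carcinoma. The genes were chosen by name: 27 encode SWI/SNF subunits, 9 are CHD ATPases, 6 are ISWI ATPases or their large partners, and 3 are ATPases of the INO80 family. All 45 were found among the 19974 protein-coding genes of chromosomes 1 to 22 and X in RefSeq (GRCh38.p14), and each was taken as its annotated span plus 3 kb on each side. DEK ChIP-seq was deposited as 1 peak list for each of 2 libraries of a single group, wild-type 786-O cells labelled as negative control and, in the sample descriptions, as Cas9, with DEK as the antibody. Whether "negative control" describes the cells or the precipitation is not said in the labels, and they were read as control cells precipitated for DEK. No DEK-edited, input or other-antibody library was analysed here. The labels do not say that the libraries came from separate cultures, so the spread between them may be technical.

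DEK is an abundant nuclear protein that binds DNA and chromatin and acts with histones. SWI/SNF complexes share a core and fall into canonical BAF, PBAF and the smaller ncBAF, each with subunits of its own, and subunits of the family are among the most often mutated chromatin genes in cancer. In clear cell renal carcinoma the PBAF subunit PBRM1 is a known tumor suppressor on the short arm of chromosome 3. CHD proteins include the ATPases of the NuRD deacetylase complex, ISWI proteins space nucleosomes, and the INO80 family exchanges histone variants.

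Replicate 1 held 19128 deposited peaks and replicate 2 held 24580, of which 52 and 71 lay at the remodeler genes. Where peaks of the 2 lists shared at least 1 bp they were merged, which gave 12590 shared regions, 40 of them at the 45 genes. Fold enrichment below is the authors' own value for a peak, a linear ratio of the summit signal over the peak caller's background within 1 library. Each region takes the value of its strongest peak per library, with the mean ± SD of the 2 libraries and the mean percentile of these values among all shared regions. With 1 group and no control, no test between conditions was possible, so the values describe the peak lists.

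Of the 40 regions at remodeler genes, 28 were in a gene body (70%), 8 in a flank (20%) and 4 at a gene end (10%). Over all protein-coding genes the pairs of a gene and a region divided into 74.9% in the body, 10.5% in a flank and 14.6% at an end, so a majority in the body was common to both. Of the 45 genes, 22 had a shared region in the span plus 3 kb (48.9%, 95% Wilson interval 35.0 to 63.0), while 26.8% of all protein-coding genes did. A region in the gene body, with its summit inside the gene and over 1 kb from both ends, was present in 17 genes (37.8%, 25.1 to 52.4) against 18.8% of all. A region at a gene end, with its summit within 1 kb of either end, was present in 3 (6.67%, 2.29 to 17.9), near the 6.34% of all genes. A further class, the flank outside the gene between the end window and 3 kb, held a region in 6 genes (13.3%, 6.26 to 26.2) against 4.5% of all. Except at ARID1A, the flank summits of these genes lay inside another annotated gene, and no such count is given for all genes. The intervals cover counting error only.

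The remodeler genes are long, with a median span of 70.9 kb against 24.2 kb for all protein-coding genes, and a long gene offers more sequence in which to find a region. In genes of 100 kb or more, 7 of 15 remodeler genes had a body region (46.7%), close to the 44.5% of all genes of that length. Between 30 and 100 kb the count was 5 of 18 (27.8%), again near the 26.1% of all. Below 30 kb it was 5 of 12 (41.7%, 95% Wilson interval 19.3 to 68.0) against 7.44%, and these 5 were SMARCD2, DPF1, BCL7B, BRD9 and CHD3. The 12 remodeler genes of this class span at least 10.6 kb, whereas the class over all genes includes genes too short to hold a summit over 1 kb from both ends. Among all genes of 10 to 30 kb, a range chosen after seeing the data, the share was 12.4%. Counted per length, the 45 genes held 0.893 shared regions per 100 kb of summed span and all protein-coding genes 0.644. Without replicate 1 these values were 1.58 and 1.24, and a peak in the span plus 3 kb was then present at 27 of the 45 genes and 41.5% of all protein-coding genes. With summits required to lie within 100 bp they were 0.536 and 0.406. The Spearman correlation of span length with number of regions was 0.201 over the 45 genes and 0.281 over all protein-coding genes. Most protein-coding genes tied at no region, so this coefficient does not measure the rise in body share, from 7.44% below 30 kb to 44.5% at 100 kb or more. Both coefficients are across genes, which share libraries and depth.

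**Figure D1:**
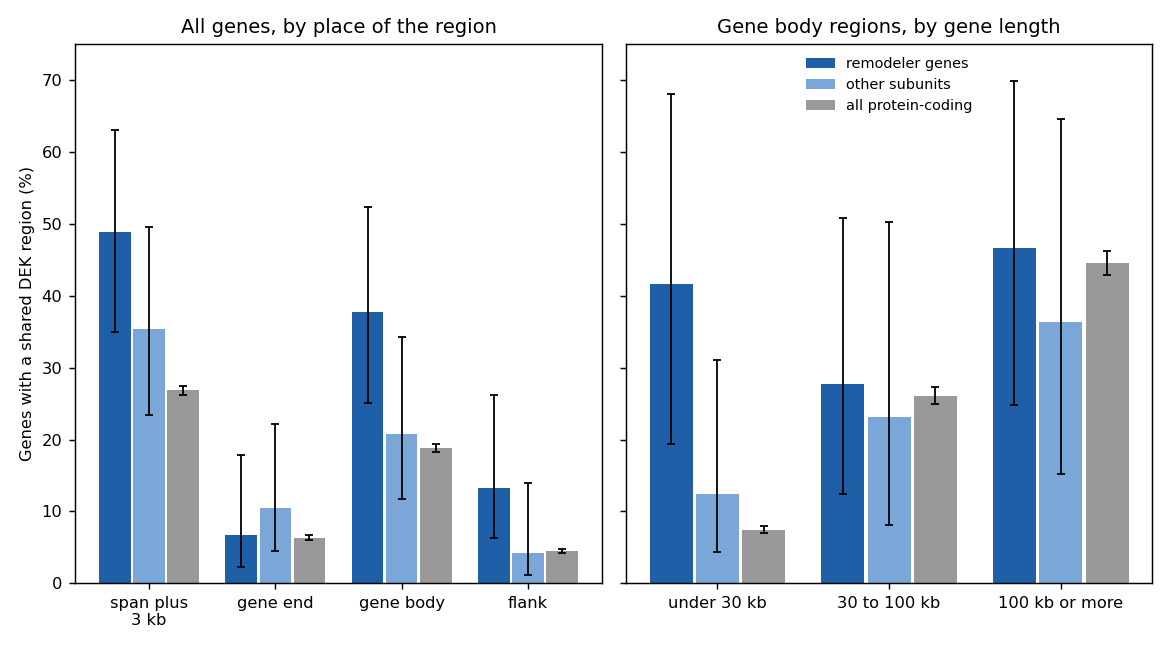
Percent of genes with a shared DEK region, with 95% Wilson intervals, by place of the region (left) and for body regions by gene length (right). Bars are for the 45 remodeler genes, 48 other genes of the same families (other subunits) and all 19974 protein-coding genes. The other subunits were not matched to the remodeler genes by family, nor at left by span length. The remodeler bar stands at 48.9% for the whole span and 6.67% for gene ends, and in genes of 30 kb or more the body bars of remodeler and all genes are close.

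At least 2 shared regions were found at 9 of the 45 genes (20%, 95% Wilson interval 10.9 to 33.8), against 9.05% of all protein-coding genes. By family, genes with a region were counted over few genes each, and differences between families were not tested. SWI/SNF had 13 of 27, CHD 5 of 9, ISWI 2 of 6 and INO80 2 of 3. Per 100 kb of summed span this was 1.15 shared regions for SWI/SNF, 1.22 for INO80, 0.522 for CHD and 0.355 for ISWI. Within SWI/SNF, both ATPase genes and both ncBAF genes had a region, as did 3 of 5 canonical BAF genes, 2 of 4 PBAF genes and 1 of the 2 genes, SS18L1 and SS18, whose products belong to canonical BAF and ncBAF. Of the 12 core and shared subunits 3 did, or 25%, near the 26.8% of all protein-coding genes. The median span of these 12 genes was 26.3 kb, near the 24.2 kb of all protein-coding genes, and that of the 5 canonical BAF genes was 86.1 kb.

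The SWI/SNF ATPase genes had 1 shared region each, called at the start of SMARCA2 and in the body of SMARCA4. Neither region reached a −log10 q of 5 in both libraries. SMARCA2, which encodes the ATPase BRM, was the single gene of the 36 with a listed strand that had a region within 1 kb of its start (2.78%, against 4.9% of all protein-coding genes with a strand). The region (chromosome 9, 2015143 to 2015448) had its summit 55 bp before the start. Its fold enrichment was 4.19 in replicate 1 and 5.62 in replicate 2 (4.91 ± 1.01, SD, n = 2), and the authors' −log10 q was 3.26 and 7.40. Solving the authors' fold enrichment and p for a whole number of overlapping fragments gave a summit pileup of 12 fragments (exact 95% Poisson interval 6.20 to 21.0) and 19, so this value rests on few fragments. The SMARCA2 promoter is shown because it is the sole remodeler promoter under a shared region, which covered 254 of its 300 bases. It is given 5′ to 3′ from RefSeq (GRCh38.p14, chr9:2015097-2015396, plus strand), 250 bases before to 50 after the start, with matches to the motifs searched in capitals:
SMARCA2: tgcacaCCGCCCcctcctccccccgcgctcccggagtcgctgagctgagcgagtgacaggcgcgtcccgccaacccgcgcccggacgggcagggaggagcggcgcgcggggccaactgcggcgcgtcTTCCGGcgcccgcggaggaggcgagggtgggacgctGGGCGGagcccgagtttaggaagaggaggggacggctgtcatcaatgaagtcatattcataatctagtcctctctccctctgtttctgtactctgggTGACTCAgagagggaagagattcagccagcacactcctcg

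The motifs were searched on both strands: the GC box as GGGCGG, the CCAAT box as its name spells it, the TATA box as TATAAA, the E-box as CACGTG, the ETS core as CCGGAA and the AP-1 site as TGANTCA. No motif is contained in another. SMARCA2 held 2 GC boxes, 1 ETS core and 1 AP-1 site, the last of them within the transcribed part. GC boxes stood in 30 of the 36 remodeler promoters in the table (83.3%) and in 58.5% of the 15812 protein-coding promoters, ETS cores in 22.2% and 22.8%, and AP-1 sites in 5.56% and 5.76%. The TATA box stood in 2.78% against 9.64%, the E-box in 5.56% against 8.87% and the CCAAT box in 36.1% against 36.3%. Median GC content was 68.5% in remodeler promoters and 62.7% in all, with 30 and 22 CpG per promoter, and SMARCA2 had 66.7% GC and 30 CpG. The matches are descriptions of letters, not of bound sites. A shared region overlapped 1 of the 36 remodeler promoters and 3.83% of all.

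SMARCA4, which encodes the alternative ATPase BRG1, had no region at an end and 1 in the body (chromosome 19, 11035729 to 11036198), 74.9 kb downstream of the start. There fold enrichment was 4.04 in replicate 1 and 4.36 in replicate 2 (4.20 ± 0.225, SD, n = 2), near the medians of all shared regions, 4.11 and 4.10. SMARCA2 also had 2 body peaks in replicate 2 alone, each at 3.56.

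The 5 canonical BAF genes held 10 of the 40 regions, or 1.14 per 100 kb of summed span, against 0.644 for all protein-coding genes. The 2 ncBAF genes held 5, or 3.67 per 100 kb, but 4 of these were at BICRA, in part close together. ARID1B, which encodes a DNA-binding BAF subunit and has the longest span of the 45 genes at 434.8 kb, had 5 shared regions, all in the body. The highest (chromosome 6, 156780308 to 156780869) lay 4.47 kb downstream of the start, near the microRNA gene MIR4466, with fold enrichment 5.83 and 4.94 in replicates 1 and 2. The 4 others lay from 243.2 to 373.2 kb downstream, and the last 2 of them were 600 bp apart (3.92 and 4.14 in replicates 1 and 2 for one, 5.48 and 4.46 for the other). Replicate 2 alone had 4 more peaks inside ARID1B, at 3.66 to 5.13.

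The paralog ARID1A had 4 shared regions in a span of 86.1 kb, in 2 body and 2 flank positions. Its highest (chromosome 1, 26698022 to 26698471) lay 2.30 kb downstream of the start and had 5.01 in replicate 1 and 6.43 in replicate 2 (5.72 ± 1.00, SD, n = 2), on summit pileups of 33 and 40 fragments. This is the second highest of all 40 regions, with a mean percentile of 88.4. Both flank regions lay beyond the far end, at 2.26 and 2.90 kb from it, and were among the lowest, at 3.16 and 3.15 for the first and 2.80 and 2.33 for the other. Their pileups were not low, 31 and 32 fragments at the first, but the background solved at these summits, 9.13 and 9.47 fragments, was over 2 times the median of 4.20 and 4.52 for all shared regions.

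DPF1, a PHD-finger subunit known from neuronal BAF, had 1 body region (chromosome 19, 38213928 to 38214475) at 4.37 and 4.87 in replicates 1 and 2. Its paralog DPF2 had no peak in either library, and DPF3 had 2 peaks in replicate 2 alone, each at 5.50. SS18L1, a transcriptional coactivator subunit, had a flank region 1.84 kb before its start, inside the neighbouring proteasome gene PSMA7, at 4.05 and 3.56, and a body region at 3.37 and 3.39. SS18, its paralog, had none.

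**Figure D2:**
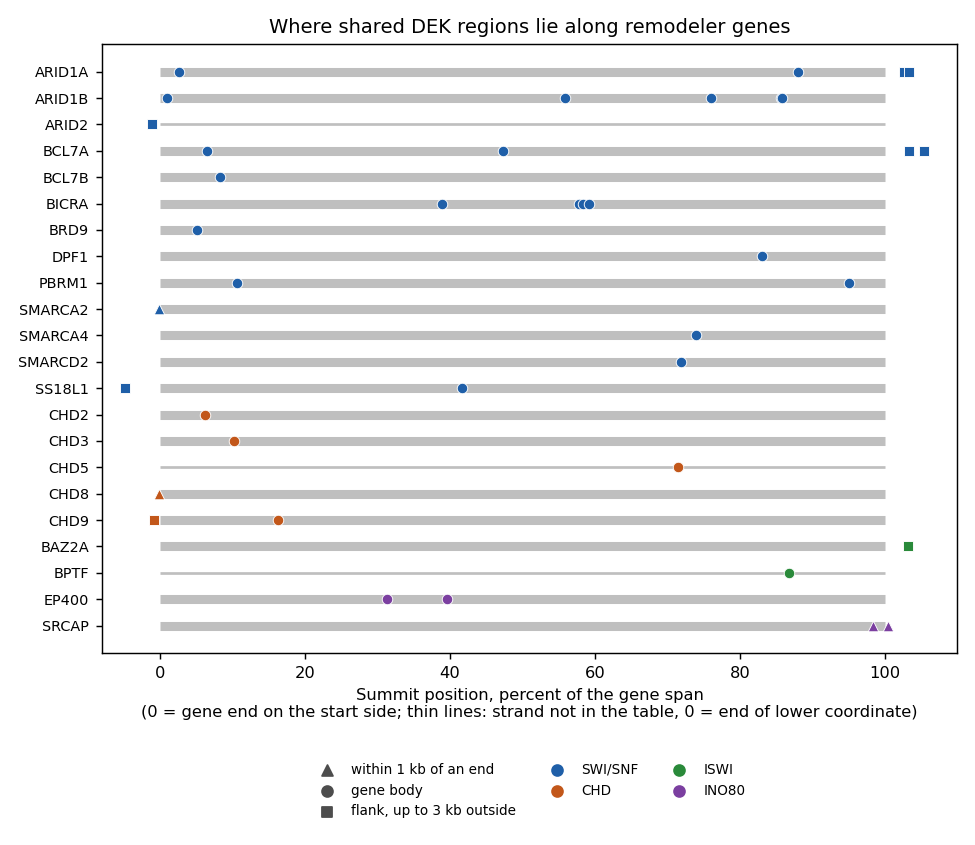
Position of each shared region's summit along the 22 remodeler genes that had one, as percent of the gene span from the start side (thin lines mark genes whose strand is not in the table, drawn from the lower coordinate). One body region each of ARID1A, ARID1B, BCL7A, BCL7B, BRD9 and CHD2 sits in the first 10% of the span, the other ARID1B regions lie past its middle, and 3 of the 4 BICRA regions lie side by side in mid-gene.

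PBAF was represented by 2 genes. PBRM1, the bromodomain subunit, had 2 body regions: 1 lay 14.9 kb downstream of the start (chromosome 3, 52670757 to 52671254) with fold enrichment 5.18 and 5.62, and 1 lay 133.6 kb downstream with 3.72 and 3.88. The solved backgrounds at PBRM1 were 2.47 and 2.74 fragments at the first and 2.23 and 2.09 at the other, below the medians of 4.20 and 4.52, so pileups of 17 and 20 fragments sufficed for a fold enrichment above 5. Copy number was not measured, and its part in these backgrounds was not tested. ARID2, the DNA-binding PBAF subunit, had the highest region of all 40 (chromosome 12, 45727430 to 45728031): 5.42 in replicate 1 and 6.14 in replicate 2 (5.78 ± 0.514, SD, n = 2), with a mean percentile of 91.2. It lay 1.96 kb outside the ARID2 end of lower coordinate and within the long non-coding RNA gene LINC00938, which lies beside ARID2, so it cannot be assigned to either gene. BRD7 and PHF10 are PBAF-specific subunits. BRD7 had 1 peak, in replicate 2 alone, at 3.74, and PHF10 had none.

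ncBAF is marked by BICRA, its scaffold subunit, and BRD9, its bromodomain subunit. BICRA had 4 body regions in 95.1 kb. The highest (chromosome 19, 47644885 to 47645652) had 4.52 and 4.64, and the other 3 formed a chain with summits 544 and 758 bp apart at means of 3.25, 3.52 and 3.06. BRD9 had 1 region 1.23 kb downstream of its start at 3.37 and 3.65 (chromosome 5, 891188 to 891468).

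Among core and shared subunits, DEK regions were at BCL7A, BCL7B and SMARCD2 only. BCL7A, a subunit of the ATPase module, was the densest of the 45 genes, with 4 regions in 40.2 kb, or 8.67 per 100 kb of the span with its flanks. It had a region 2.60 kb downstream of its start at 3.84 and 5.04 and another at 19.0 kb at 4.83 and 4.89 (chromosome 12, 122040731 to 122041071). A pair lay 1.35 and 2.16 kb beyond its far end, within the long non-coding RNA gene LINC02985, at 3.10 and 3.18 for the nearer and 3.96 and 5.50 for the farther. Next in density among genes with at least 2 regions were SS18L1 (4.47 per 100 kb), ARID1A (4.34), SRCAP (4.15) and BICRA (3.96). BCL7B had a region 1.31 kb downstream of its start at 3.53 and 3.39, and BCL7C had no peak.

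SMARCD2, in the shortest span of the 45 genes at 10.6 kb, had 1 body region (chromosome 17, 63834799 to 63835225) with 5.22 in replicate 1 and 5.46 in replicate 2 (5.34 ± 0.170, SD, n = 2), with a mean percentile of 87.1. SMARCD1 had 1 peak in replicate 1 alone, at 4.38, and SMARCD3 had none. The remaining core genes, SMARCB1, SMARCC1, SMARCC2, SMARCE1, ACTL6A and ACTL6B, had no peak in either library. SMARCC1 spans 196.6 kb and is the longest of the 15 genes without any peak. Such a gene had nothing above the authors' calling threshold at this depth, which does not show that DEK was absent.

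**Figure D3:**
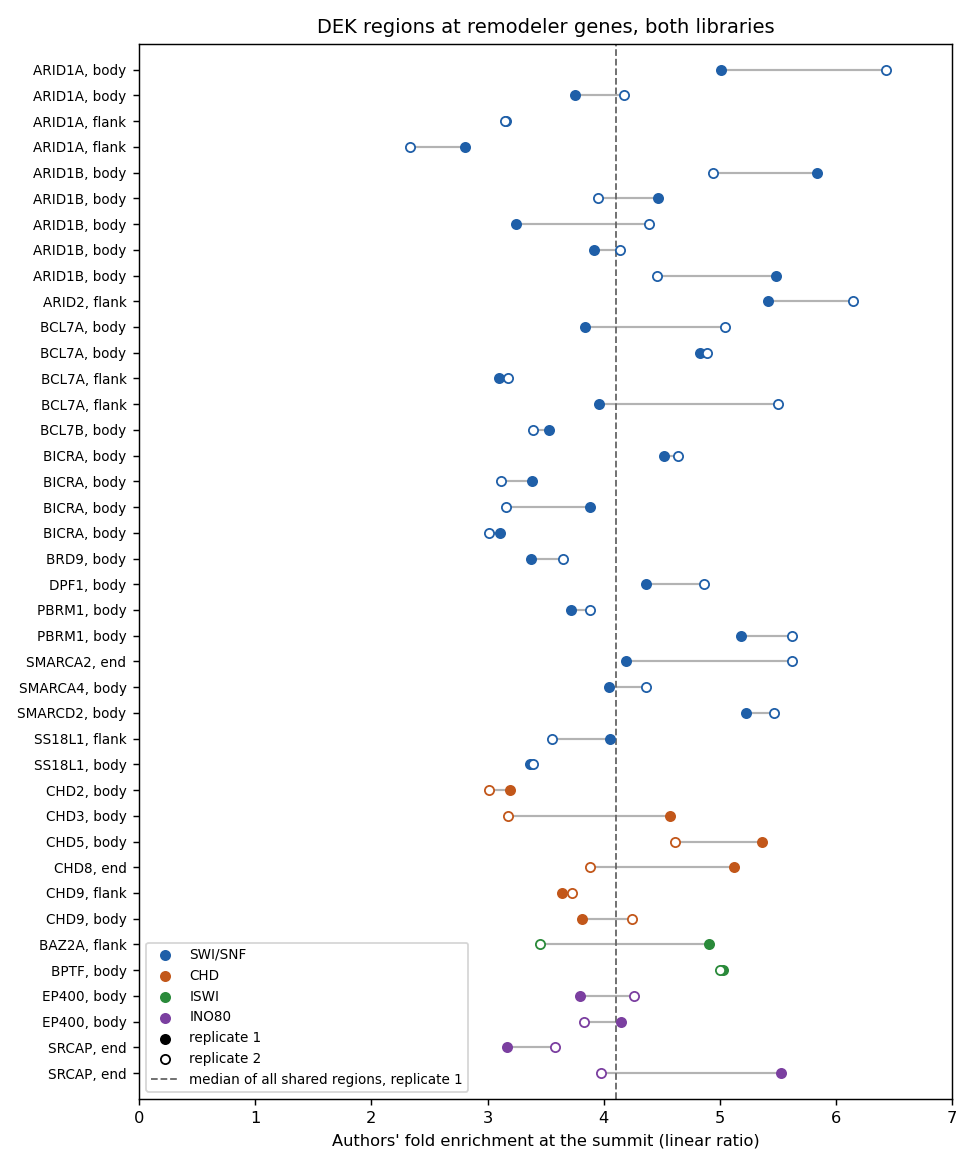
Authors' fold enrichment in replicate 1 (filled) and replicate 2 (open) for each of the 40 shared regions at remodeler genes, labelled by gene and place, with the replicate 1 median of all shared regions (4.11) as a dashed line. Values run from 2.33 to 6.43, and lines between the circles show the gap between libraries, widest at SRCAP, BCL7A, BAZ2A, SMARCA2, ARID1A and CHD3.

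CHD genes had 6 regions in 5 genes. CHD8, a CHD family ATPase known to restrain beta-catenin signalling, had a region at its end of higher coordinate (chromosome 14, 21455976 to 21456450), at 5.12 in replicate 1 and 3.88 in replicate 2 (4.50 ± 0.875, SD, n = 2). The pileups there were only 14 and 11 fragments. The gene is on the minus strand, and this outermost end lies 18.9 kb before the start used by the promoter table, beside the end of the long non-coding RNA gene LOC124903283. CHD5, a NuRD-type ATPase known from neural tissue, had the highest CHD region, in the body (chromosome 1, 6157663 to 6158092), at 5.36 and 4.62 with pileups of 37 and 35. CHD5 had 2 further body peaks in replicate 2 alone, at 2.93 and 2.98.

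CHD3, the NuRD ATPase Mi-2 alpha, had a region 1.14 kb before the start in the table but inside its annotated span, at 4.57 and 3.17, and a peak at an end in replicate 2 alone at 4.08. CHD4, the other main NuRD ATPase, had no peak. CHD2 had 1 body region at 3.19 and 3.01, a mean percentile of 8.46, and CHD1 had 2 body peaks in replicate 2 alone at 4.00 and 3.71. CHD9 had a flank region 2.30 kb before its start, within the neighbouring gene CHD9NB, at 3.64 and 3.72, and a body region at 3.81 and 4.25. CHD6 had 2 peaks in replicate 1 and 1 in replicate 2 that did not overlap, and CHD7 had none.

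ISWI genes carried the fewest regions. BPTF, the large NURF subunit that reads methylated histone tails, had 1 body region (chromosome 17, 67963170 to 67963585) at 5.02 and 5.00 (5.01 ± 0.0189, SD, n = 2), with a mean percentile of 81.3 and 22 fragments in both libraries. BAZ2A, the NoRC subunit that silences ribosomal RNA genes, had a region 1.38 kb beyond its far end and inside the neighbouring gene RBMS2, at 4.90 and 3.46. Of the ATPase genes, SMARCA5 had a peak at an end in replicate 1 alone, at 4.45, and SMARCA1 had none. BAZ1A and BAZ1B, partners of SMARCA5 in the ACF and WICH complexes, had 1 peak each in a single library, BAZ1A at 4.44 in replicate 1 and BAZ1B at 2.90 in replicate 2.

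In the INO80 family, SRCAP, the ATPase that deposits the histone variant H2A.Z, held both end regions of the group. They lay at its far end with summits 897 bp apart. The outer (chromosome 16, 30741150 to 30741779) had 5.53 in replicate 1 and 3.97 in replicate 2 (4.75 ± 1.10, SD, n = 2), with 36 and 27 fragments, and the inner had 3.17 and 3.58. Both lie within 1 kb of an end of TMEM265 and inside that gene, which overlaps the end of SRCAP, so they cannot be assigned to SRCAP alone. EP400, the ATPase of the TIP60 complex, had 2 body regions (chromosome 12, 131990232 to 131991053 and 132001570 to 132001764), at 3.80 and 4.26 for the first and 4.15 and 3.83 for the other. INO80 itself had no peak.

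Relative to the start, 5 of the 36 genes with a strand had a body region 1 to 5 kb downstream: ARID1A, ARID1B, BCL7A, BCL7B and BRD9 (13.9%, 95% Wilson interval 6.08 to 28.7), against 3.93% of all protein-coding genes with a strand. All 5 encode SWI/SNF subunits, as do 23 of the 36 genes with a strand. Gene lengths were not matched in these counts. The window of 1 to 5 kb was not among the planned counts and was not varied. Among the 37 pairs of a gene and a region at genes with a strand, 5 lay at this position (13.5%, 5.91 to 28.0). Of all such pairs at protein-coding genes, 8.8% did, which is within that interval. On the opposite side, 3 of the 36, ARID1A, BCL7A and BAZ2A, had a flank region beyond the far end (8.33%, 2.87 to 21.8) against 2.66%. SRCAP alone had an end region on that side (2.78% against 2.04%), and SS18L1 and CHD9 had a flank region before the start (5.56% against 2.02%). Of the summits in these flank and far-end counts, all but those of ARID1A lay inside another annotated gene. Strand was not in the table for 9 genes, which were left out of these counts: ACTL6A, ARID2, BAZ1A, BPTF, CHD5, CHD6, CHD7, SMARCC1 and SMARCC2.

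The end count rests on the window chosen. The farthest summit counted as an end region was 722 bp from an end, at SRCAP, and the nearest one outside the window was 1.35 kb away, at BCL7A. With a window of 3 kb the count rose from 3 to 13 of the 45 genes, while the share of all protein-coding genes was 13.2%. The genes added were ARID1A, ARID2, BAZ2A, BCL7A, BCL7B, BRD9, CHD3, CHD9, SMARCD2 and SS18L1. Of these, ARID2, CHD9, SS18L1 and BAZ2A owe their place to regions inside neighbouring genes. If both libraries had to reach a −log10 q of 5, SRCAP was the only end gene left, and 2.29% of all protein-coding genes kept an end region. Without replicate 1, the peaks of replicate 2 alone put 6 of the 45 genes in the end class, namely ARID2, CHD3, CHD8, SMARCA2, SRCAP and SS18L1. Of all protein-coding genes, 12.1% were then in that class.

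The regions at remodeler genes resembled other genic regions in most measures. Their fold enrichment had medians of 4.00 and 4.06, against 4.01 and 3.99 for the 8133 shared regions in all protein-coding spans, and ranged from 2.80 to 5.83 in replicate 1 and from 2.33 to 6.43 in replicate 2. Median width was 461.5 bp against 443 bp, the summits of the 2 libraries lay a median of 69.5 bp apart against 74 bp, and the median absolute log2 ratio between libraries was 0.16 against 0.17. Fold enrichment reached 5 in both libraries at 4 of the 40 regions (ARID2, ARID1A, PBRM1 and SMARCD2; 10% against 6.42%), and BPTF missed this narrowly in replicate 2. Of the peaks at remodeler genes, 78.8% in replicate 1 (41 of 52, 95% Wilson interval 66.0 to 87.8) and 59.2% in replicate 2 (42 of 71, 47.5 to 69.8) had a partner in the other library, against 67.4% and 52.7% of peaks in protein-coding spans.

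**Figure D4:**
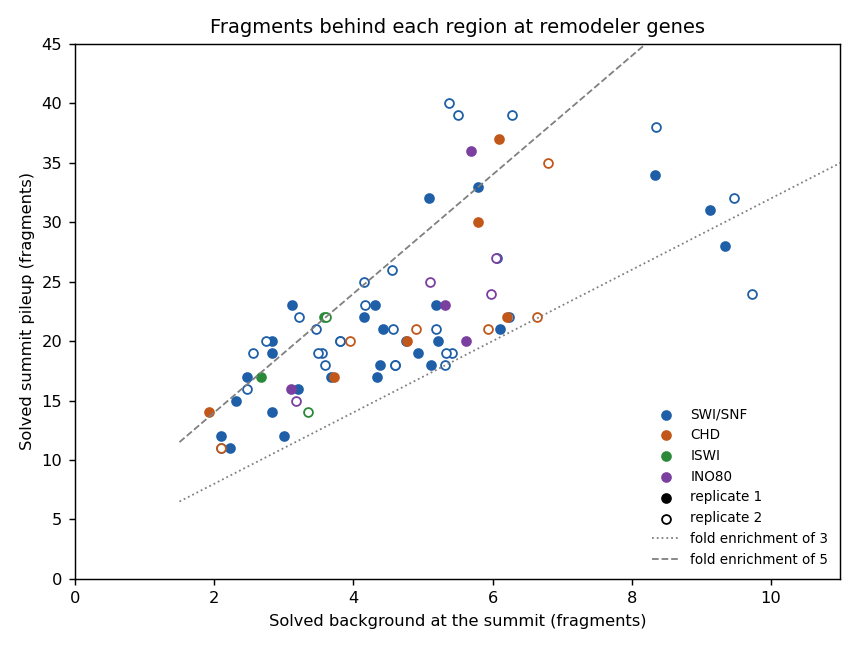
Summit pileup against background, both in fragments, as computed from fold enrichment and p, for the 40 shared regions at remodeler genes in replicate 1 (filled) and replicate 2 (open), with lines of equal fold enrichment at 3 and 5. Pileups run from 11 to 40 fragments, and the ARID1A regions near and beyond its far end lie at the highest backgrounds, over 8 fragments.

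A fixed list of 48 other genes of the same families, here called other subunits, gave the wider pathway. It was not matched to the 45 remodeler genes: only ACTB and BICRAL were listed under SWI/SNF, against 27 of the remodeler genes. Its median span was 30.8 kb, against 70.9 kb. Of these, 17 had a shared region in the span plus 3 kb (35.4%, 95% Wilson interval 23.4 to 49.6; 26.8% of all genes), 10 had one in the body (20.8%; 18.8% of all) and 5 had one at an end (10.4%, 4.53 to 22.2; 6.34% of all). Of the 43 with a strand, 4 had a summit within 1 kb of the start (9.30%, 3.68 to 21.6, against 4.9%). They were ACTR6, an actin-related subunit of the SRCAP complex, RBBP4, a histone-binding NuRD subunit, GATAD2B, a NuRD subunit, and BRD8, a bromodomain subunit of the TIP60 complex. ACTR6 had the highest region (chromosome 12, 100200475 to 100200879), at 6.81 in replicate 1 and 4.76 in replicate 2 (5.79 ± 1.45, SD, n = 2), with 20 and 14 fragments. RBBP4 had 2 regions before its start, both also within 1 kb of an end of the neighbouring gene ZBTB8OS, at 3.96 and 4.23 for the farther and 4.27 and 4.12 for the nearer. GATAD2B had 4.31 and 3.26, and BRD8, which lies beside KIF20A, had 4.73 and 2.92. INO80B had its region near the far end, beside WBP1, at 5.25 and 4.02.

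The 4 partner promoters under a shared region are shown next to that of SMARCA2, from the same table (ACTR6 chr12:100200565-100200864, plus strand; RBBP4 chr1:32650958-32651257, plus; GATAD2B chr1:153922923-153923222, minus; BRD8 chr5:138178581-138178880, minus), with motif matches in capitals:
ACTR6: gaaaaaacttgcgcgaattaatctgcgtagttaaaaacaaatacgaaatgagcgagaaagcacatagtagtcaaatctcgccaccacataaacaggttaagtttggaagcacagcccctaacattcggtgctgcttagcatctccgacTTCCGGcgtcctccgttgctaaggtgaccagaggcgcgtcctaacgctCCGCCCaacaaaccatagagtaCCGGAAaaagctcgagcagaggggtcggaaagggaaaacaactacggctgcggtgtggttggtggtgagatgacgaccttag
RBBP4: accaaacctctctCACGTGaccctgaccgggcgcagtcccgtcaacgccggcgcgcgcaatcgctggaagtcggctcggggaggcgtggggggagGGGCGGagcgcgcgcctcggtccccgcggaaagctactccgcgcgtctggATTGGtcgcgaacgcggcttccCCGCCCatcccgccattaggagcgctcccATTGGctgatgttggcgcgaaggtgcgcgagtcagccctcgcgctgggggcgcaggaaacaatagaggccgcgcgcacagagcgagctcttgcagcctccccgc
GATAD2B: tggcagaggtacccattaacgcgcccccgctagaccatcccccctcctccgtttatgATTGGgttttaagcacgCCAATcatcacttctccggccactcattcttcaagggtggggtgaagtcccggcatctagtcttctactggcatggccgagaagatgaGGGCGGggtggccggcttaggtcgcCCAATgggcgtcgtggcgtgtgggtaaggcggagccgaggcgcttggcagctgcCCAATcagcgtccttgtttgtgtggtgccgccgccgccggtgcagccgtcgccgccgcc
BRD8: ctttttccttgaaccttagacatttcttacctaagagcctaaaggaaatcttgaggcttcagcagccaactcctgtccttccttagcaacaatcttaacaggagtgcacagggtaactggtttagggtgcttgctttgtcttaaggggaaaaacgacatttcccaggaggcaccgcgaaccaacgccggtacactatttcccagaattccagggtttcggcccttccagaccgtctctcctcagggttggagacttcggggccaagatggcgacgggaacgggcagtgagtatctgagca

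The 5 promoters had no motif in common among those searched. ACTR6 held 2 ETS cores and 1 GC box, RBBP4 2 GC boxes, 2 CCAAT boxes and 1 E-box, GATAD2B 4 CCAAT boxes and 1 GC box, and BRD8 none of them. GC content ran from 50% in ACTR6 and 51% in BRD8 through 63.3% in GATAD2B to 70.3% in RBBP4, and CpG counts from 11 in BRD8 to 42 in RBBP4. The other subunits with regions had them in the gene body or, for ACTB and MTA2, in a flank, led by GATAD2A with 5 body regions and RUVBL1 with 3. No shared region lay at HDAC1, HDAC2, TRRAP, KAT5 or YY1.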

How the data were processed

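DEK ChIP-seq of 786-O cells was deposited as 1 narrowPeak list per library, 2 libraries in 1 group. Per the submitters' processing notes the build was GRCh38 (hg38) and the tools, listed with no roles, included MACS2 2.2.7.1, Bowtie2 2.2.5 and cutadapt 1.18, beside deepTools 3.5.1, ChIPseeker 1.32.1 and DiffBind 3.6.5. The use of a control library is not stated in any source read here, so fold enrichment may be relative to the same library's surroundings. The deposited values are a whole-number score, a fold enrichment (a linear ratio), −log10 p, −log10 q and a summit offset in bp. Deposited −log10 q values started at 1.31 and 1.30.

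Peaks outside chromosomes 1 to 22 and X were left out (0.591% and 0.5%). Peaks overlapping by at least 1 bp were joined, with the mid-point of the strongest peaks' summits as the region's summit. Summit pileup was solved from the authors' fold, taken as (pileup + 1) over (background + 1), and the Poisson p, to a relative tolerance of 5e-05, for 99.995% and 99.996% of peaks. The median pileup was 19 in both libraries, so single fold values have a wide counting error. Genes came from a RefSeq table (GRCh38.p14) with 1 span per gene, and strand from the promoter table, for 36 of the 45 genes. Exons, introns and UTRs were not used here. Placement was checked on 200 genes, some given a planted end, body or flank region and the rest none. Every planted region was placed in its class. Genes given none were counted as recovered by default, so false placement was not tested.

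Genes were named by rule: every gene with an end region, the 10 with most regions, the 10 with the highest body region, the 5 densest with at least 2 regions, and all genes without a shared region. Of the other subunits, those with an end region were to be named. Others of them named, and single-library peaks, were chosen after their values were seen. Members and lists were chosen with earlier results of these data known. Python 3.11.15, numpy 2.4.6, pandas 2.3.3, scipy 1.17.1 and matplotlib 3.10.9 were used. Alternatives changed the overlap rule, peak threshold, end window, flank and number of libraries.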

Additional observations from a re-analysis of the deposited data

How the results depend on the processing

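Counts fell with stricter peaks. With −log10 q of at least 5 in both libraries, 12 of the 45 remodeler genes had a shared region in the span, 1 at an end and 9 in the body. Of all protein-coding genes, 12.3% then had one in the span and 2.29% at an end, as did 1 of the 48 other subunits at an end. With fold enrichment of at least 5 in both libraries the remodeler counts were 4, 0 and 3 genes. The shares of all genes were then 2.78% in the span and 0.521% at an end, with 0 other subunits at an end. The body share of all genes was not counted under these 2 rules. Windows of 3 kb gave 13 remodeler genes, 13.2% of all genes and 9 other subunits with an end region. With the 1 kb window, requiring summits within 100 bp left 3 of the 5 other subunits. With the peaks of 1 library alone, the end count was 4 to 6 remodeler genes (6 without replicate 1), 9.79% to 12.1% of all genes and 9 other subunits in either case, and the median per gene was 0.718 to 1.21 regions per 100 kb of span, against 0 when both libraries were required. The cause was not tested; stricter thresholds and shared calls leave fewer peaks by construction. A 50% reciprocal overlap, a window of 500 bp, spans without a flank, and, added after seeing the data, any overlap with the end window kept every count run under them within 1.5 times. No paired analysis was possible because the 2 libraries form a single group. Few fragments per peak limit all absent calls.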

Other observations

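In a list of 14 other genes of the SNF2 ATPase superfamily, chosen after the remodeler results were seen, 2 had a shared region. Span lengths were not matched and no interval was computed for these 14 genes. The region was counted in the span plus 3 kb, where 26.8% of all protein-coding genes had one. SMARCAL1, an annealing helicase that acts at stalled replication forks, had 1 in the body (chromosome 2, 216426845 to 216427414) at a fold enrichment of 4.87 in replicate 1 and 4.50 in replicate 2. RAD54B, a recombination factor, had 1 body region at 3.51 and 4.39. ATRX, the ATPase that works with DAXX in histone deposition, had no peak in either library in a span of 281.3 kb, and neither had ERCC6, HELLS, HLTF, RAD54L, RAD54L2, SHPRH or SMARCAD1. BTAF1 and ERCC6L2 had 1 peak in each library that did not overlap, TTF2 had 2 peaks in replicate 2 alone and ZRANB3 2 in replicate 1 alone.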
